A study of Mus musculus with 4 samples.

Results

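Collagens are secreted or membrane-bound proteins whose chains wind into a triple helix, and they form the fibrils of connective tissue, the network under epithelia and around vessels, and the filaments between them. In the embryonic brain they are known mainly from the meninges, the blood vessels and the pial basement membrane, to which the end feet of the radial glia attach, while neural progenitors and neurons make little of the fibrillar types. The collagen genes were taken by name, as every gene whose symbol has the form Col, a number, the letter a and a number. The rule used no measured value and found 43 of the 22084 genes in the tables.

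Messenger RNA was counted in 4 libraries from the brain of B6D2F2 mouse embryos at E13.5, in a series on Tcf20, a nuclear protein, and the formation of neurons. KO26F and KO23M carry the genotype label TCF20-/-, WT25F carries TCF20+/+, and WT22M is titled wild type while its genotype field reads TCF20+/-. Under either label WT22M holds a wild-type allele, so WT25F and WT22M are called carriers here, and KO stands for the libraries labelled TCF20-/-. The tissue labels also differ, with telencephalon in one place and dissected cerebral cortex in another, and the labels do not say how the Tcf20 allele was made, whether embryos were pooled or whether they came from separate litters. The p-values therefore measure the spread between these samples only. Where 4 values follow each other without names, their order is KO26F, KO23M, WT25F, WT22M.

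The libraries were of even depth, from 17791641 to 18509743 counts, of which 23221 to 26769 came from collagen genes. Tcf20 itself stood at 98.6 CPM, which is counts scaled to the library total, in KO26F and 104 in KO23M, and at 118 CPM in WT25F and 111 in WT22M (edgeR log2 fold change -0.18, SE 0.10, adjusted p = 0.9997), and both KO libraries lay below both carriers by a small margin. Markers of telencephalic neural cells were abundant in every library, with Lhx2, a transcription factor of cortical progenitors, between 359 and 414 CPM. WT22M stood apart in the choroid plexus, the epithelium that secretes cerebrospinal fluid. Its 6 listed markers summed to 192 CPM there, against 987 in KO26F, 769 in KO23M and 932 in WT25F.

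Summed over the 43 genes, collagen RNA was lower in the KO libraries, at 1281 CPM in KO26F and 1325 in KO23M, than in the carriers, at 1467 in WT25F and 1505 in WT22M. The KO mean was 1303 ± 30.9 CPM and the carrier mean 1486 ± 26.7 CPM (SD, n = 2 each), a difference of -12.3% or -0.19 on the log2 scale. The groups did not overlap, and the gap between the arms was larger than the spread within either. With 2 libraries against 2, an exact two-sided permutation test cannot go below p = 0.333, so no test is given for the sum. In bulk tissue, fewer cells that make collagen and less collagen RNA per cell cannot be told apart. Without the most abundant member the difference in the sum was -0.18 on the log2 scale.

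The structural classes did not all share the order of the sum. The 11 fibrillar collagens, whose trimers pack into the banded fibrils of connective tissue, summed to 466 CPM in KO26F and 480 in KO23M, against 551 in WT25F and 566 in WT22M (-15.4%). The 6 type IV genes of basement membranes summed to 473, 483, 531 and 558 CPM in the same order of libraries (-12.2%). The 6 type VI genes, whose chains form beaded filaments around cells, summed to 58.6, 62.3, 73.8 and 79.0 CPM (-20.9%). In these 3 classes both KO libraries lay below both carriers. The sums of the FACIT class, collagens that sit on the surface of fibrils, overlapped between the arms, with 97.9 CPM (KO26F) and 97.9 CPM (KO23M) against 105 CPM (WT25F) and 93.1 CPM (WT22M). So did the sums of the multiplexins, basement membrane collagens that carry heparan sulfate or chondroitin sulfate chains, with 109, 120, 109 and 124 CPM, and those of the 4 transmembrane collagens, with 23.1, 17.2, 27.0 and 22.2 CPM (-18.0%). The 2 short-chain network genes went the other way without overlap, at 10.7, 10.6, 10.03 and 5.11 CPM (40.6% higher in KO), with WT22M the low library. The 3 remaining genes, Col26a1, Col7a1 and Col28a1, summed to 43.3, 54.1, 60.7 and 57.7 CPM (-17.7%), again without overlap.

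**Figure D1:**
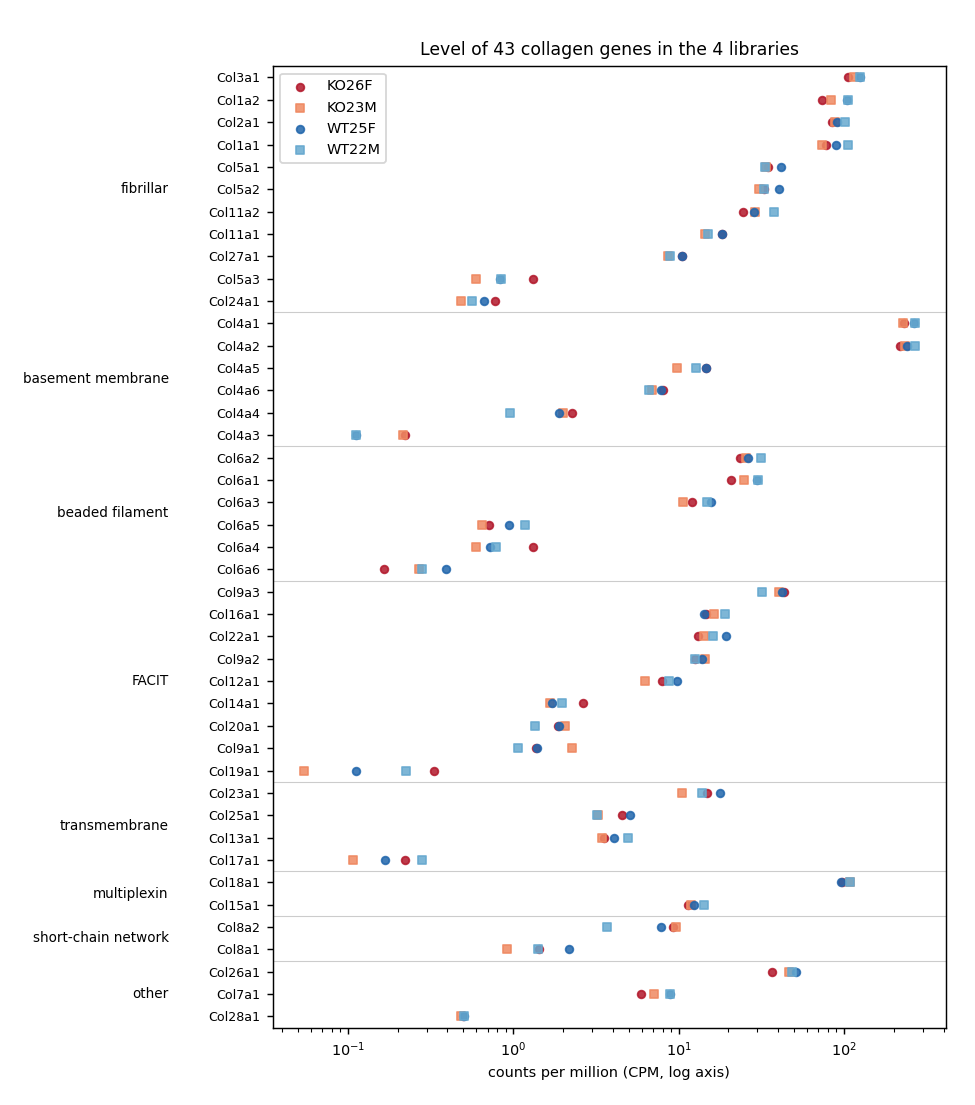
Level of each of the 43 collagen genes in the 4 libraries, in CPM on a log axis, grouped by structural class; each point is 1 library. Col4a1 and Col4a2 lie highest, at 217 to 270 CPM, and most of the abundant genes have both KO points (red and orange) to the left of the carriers (blue).

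By level, 22 members had a mean of at least 10 CPM and 9 had a mean under 1 CPM, so the class sums rest on few genes. Per kilobase of transcript, the order was led by Col4a1 and Col4a2. With the longest transcript as length they stood at 37.6 and 37.2 CPM per kilobase (mean of the 4 libraries), followed by Col3a1 (21.2), Col18a1 (18.4), Col2a1 (17.9), Col1a2 (17.2) and Col26a1 (16.5). With the union of all exons as length the first ranks were Col4a2 (36.2), Col4a1 (33.3), Col18a1 (14.6), Col1a1 (13.2) and Col3a1 (12.02). The basement membrane chains led on both scales, while the order among the fibrillar chains depended on the length used. At the other end, Col4a3 had 2 to 4 counts per library, and Col17a1 and Col19a1, a transmembrane collagen of epithelial anchoring and a FACIT, had 14 and 13 counts over all 4 libraries.

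The type IV genes lie in head-to-head pairs, a known arrangement in which both chains of a pair start from one stretch of DNA, and these stretches are shown because the chains of a pair can be compared within a library. Col4a1 (minus strand) and Col4a2 (plus strand) on chromosome 8 have first exons that overlap by 22 bases at chr8:11312805-11312826 (GRCm38). The strand setting of the counting is not given, so reads from those bases cannot be assigned to one gene. The 30 bases at chr8:11312801-11312830 are given on each gene's own strand, with the shared bases in capitals (RefSeq, GRCm38.p6).
Col4a2: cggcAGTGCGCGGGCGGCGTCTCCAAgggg
Col4a1: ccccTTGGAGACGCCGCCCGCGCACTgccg
Col4a4 and Col4a3 on chromosome 1 are separated by 71 bases, at chr1:82586850-82586920, printed on the strand of Col4a4.
Col4a4: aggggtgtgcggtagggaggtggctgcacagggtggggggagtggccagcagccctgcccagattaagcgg
Col4a6 and Col4a5 on the X chromosome lie 1308 bases apart. The 250 bases before Col4a6 (chrX:141474077-141474326, minus strand) and the 216 bases before Col4a5 (chrX:141475169-141475384, plus strand) follow, with matches to a GC box or a CCAAT box in capitals.
Col4a6: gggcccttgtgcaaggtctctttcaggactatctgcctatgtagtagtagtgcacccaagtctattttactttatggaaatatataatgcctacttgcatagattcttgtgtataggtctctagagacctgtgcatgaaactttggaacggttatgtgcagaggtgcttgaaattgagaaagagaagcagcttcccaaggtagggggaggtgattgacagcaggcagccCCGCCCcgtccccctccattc
Col4a5: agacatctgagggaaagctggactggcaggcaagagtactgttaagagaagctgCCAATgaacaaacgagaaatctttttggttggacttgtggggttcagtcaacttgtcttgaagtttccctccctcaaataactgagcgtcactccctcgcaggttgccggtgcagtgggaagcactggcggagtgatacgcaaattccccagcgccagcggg
Over the 37 RefSeq windows of 34 members, each from 250 bases before to 50 after the start, the GC box (GGGCGG, both strands) was found in 23 windows (62.2%), against 35.7% of all 32851 windows. The CCAAT box (CCAAT, both strands) was found in 13 (35.1%, against 37.4%) and the TATA box (TATAAA, both strands) in 4 (10.8%, against 13.6%). Each motif was searched on its own, also where it overlapped another. A match describes the letters and not a bound site.

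The first comparison asked how the collagen genes of the KO libraries stood against the carriers. The 38 members that passed the filter on low counts were lower in 27 cases and higher in 11, with a median log2 fold change of -0.17, against 0.00 over all 16252 genes tested. None passed the threshold in edgeR's quasi-likelihood test, where 0.0308% of all genes were called lower and 0.0308% higher, and DESeq2 and voom called none either. At an unadjusted p under 0.05 there were 10 members, 9 of them lower, while 2.86% of all genes tested reached that level. The smallest adjusted p of a member was 0.583, for Col1a2. Both KO libraries lay below both carriers for 17 of the 38 tested members, against 13.4% of all genes tested, and above both for 2, against 13.6%. The 5 members left untested for low counts were Col28a1, Col6a6, Col17a1, Col19a1 and Col4a3.

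The abundant members carried most of this pattern. Of the 22 with a mean of at least 10 CPM, the KO mean was lower for 20, both KO libraries lay below both carriers for 13, and both lay above for 0. Over all genes tested, at any level, 13.4% lay below and 13.6% above, and no share at a matched level was computed. The 20 include Col18a1 (-0.1%) and Col11a1 (-1.5%), whose arms overlapped. Only Col9a3 and Col9a2 of the 22 had a higher KO mean. Over all 43 members the KO mean was lower for 30, with a median log2 ratio of -0.16, while over all 21508 genes with a ratio 50.6% were lower and the median was -0.00.

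**Figure D2:**
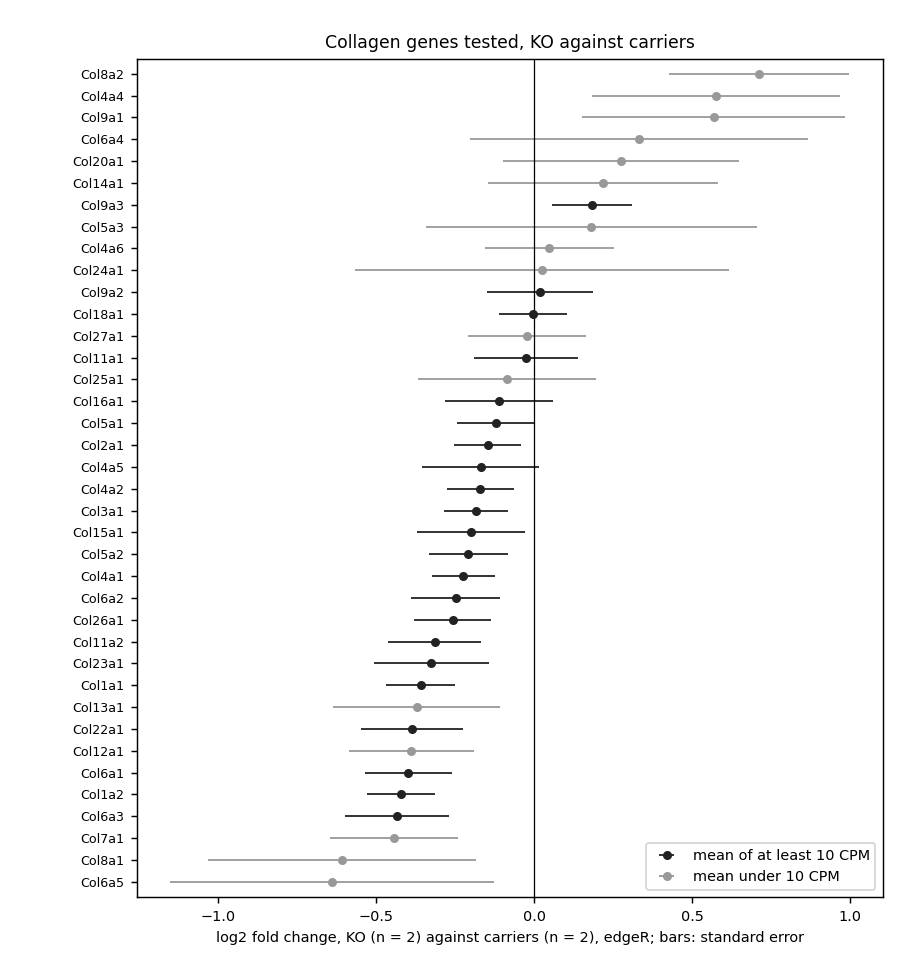
Log2 fold change of the 38 tested collagen genes, KO (n = 2) against carriers (n = 2), from edgeR, with standard errors as bars; black points have a mean of at least 10 CPM. The points run from -0.64 for Col6a5 to 0.71 for Col8a2, and 27 lie left of 0.

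Type I collagen, the main protein of connective tissue fibrils, is made of chains from Col1a1 and Col1a2. Col1a2 (chromosome 6, 4504814 to 4541544, plus strand) stood at 73.5 CPM (KO26F) and 83.7 CPM (KO23M) against 105 CPM (WT25F) and 105 CPM (WT22M). Both KO libraries were lower than both carriers, which stood at the same level. The log2 fold change was -0.42 (SE 0.11), the KO mean was 25.2% below that of the carriers, and the adjusted p was 0.583 (edgeR). Col1a1 (chromosome 11, 94936224 to 94953042, plus strand) stood at 78.3 CPM (KO26F) and 73.9 CPM (KO23M) against 89.2 CPM (WT25F) and 105 CPM (WT22M), again without overlap. Its log2 fold change was -0.36 (SE 0.11, adjusted p = 0.960), and without WT22M it was -0.22.

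The title letter, F or M, splits the libraries into KO26F with WT25F and KO23M with WT22M, and a fit with that letter as a block is the one alternative that called several members. There, where 0.381% of all genes were called lower and 0.375% higher, Col1a2 (log2 fold change -0.42, edgeR adjusted p = 2.08e-05), Col1a1 (-0.35, 0.00213) and Col4a1 (-0.22, 0.0382) passed as lower and Col8a2 (0.77, 0.0257) as higher. That fit has 1 residual degree of freedom. The labels do not say that a letter marks a shared litter or batch, so the libraries are not taken as pairs.

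The other fibrillar chains differed less. Col3a1, the homotrimeric type III collagen and a ligand of the receptor Adgrg1 on neural progenitors, stood at 106 CPM (KO26F) and 116 CPM (KO23M) against 125 CPM (WT25F) and 126 CPM (WT22M). Both KO libraries were lower, and its log2 fold change was -0.18 (SE 0.10, -0.10 without KO26F, and in edgeR an adjusted p = 0.9997). Col2a1, best known from cartilage fibrils, stood at 85.2 and 88.7 CPM in the KO libraries and at 91.0 in WT25F and 101 in WT22M. Its KO values lay just below the lower carrier, with a log2 fold change of -0.15 (SE 0.11), which was -0.05 without WT22M and -0.24 without WT25F.

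The type V chains, which start and limit fibril growth, were set apart by WT25F rather than by the arm. Col5a1 stood at 34.9 CPM (KO26F) and 33.98 CPM (KO23M) against 41.5 CPM (WT25F) and 33.2 CPM (WT22M). Col5a2 stood at 32.7, 30.8, 40.5 and 32.8 CPM in the same order. For both genes WT25F was the high library and WT22M lay at or near the KO level. The log2 fold change of Col5a1 was -0.12 (SE 0.12) and turned to 0.03 without WT25F, and that of Col5a2 was -0.21 (SE 0.12) and -0.07 without WT25F.

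The type XI chains, which copolymerize with type II collagen, did not share a pattern. Col11a2 stood at 24.5, 28.8, 28.6 and 37.5 CPM (KO26F, KO23M, WT25F, WT22M), with WT22M the high library (log2 fold change -0.31, SE 0.15, and -0.09 without WT22M), and Col11a1 at 18.4, 14.4, 18.2 and 15.1 CPM, with the F libraries above the M libraries.

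In the basement membrane class the 2 abundant chains, Col4a1 and Col4a2, which together form the network around vessels and under the pia, showed the same order. Col4a1 stood at 231 CPM (KO26F) and 229 CPM (KO23M) against 266 CPM (WT25F) and 270 CPM (WT22M). Its arms were tight and did not overlap, and its log2 fold change was -0.22 (SE 0.10, and in edgeR an adjusted p = 0.9997, unadjusted p = 0.0346). Col4a2 stood at 217, 235, 240 and 268 CPM in the same order, with a log2 fold change of -0.17 (SE 0.11). Here KO23M came within 5 CPM of WT25F, so the arms were separate by less than the spread between the carriers. The value was -0.10 without KO26F, -0.07 without WT22M and -0.27 without WT25F.

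The rarer type IV chains, which replace the common network in a few epithelia such as the kidney filter, did not share that order of the libraries. Col4a5 stood at 14.6 CPM (KO26F) and 9.78 CPM (KO23M) against 14.6 CPM (WT25F) and 12.7 CPM (WT22M), and its head-to-head partner Col4a6 at 8.05, 6.92, 7.80 and 6.63 CPM. The log2 fold change was -0.17 (SE 0.19) for Col4a5 and 0.05 (SE 0.20) for Col4a6. Col4a5 and Col4a6 are X-linked, and for both the F library of each arm was the higher one. Autosomal members such as Col11a1, Col23a1, Col25a1 and Col27a1 had that order as well. Col4a4 stood at 2.26, 2.00, 1.89 and 0.956 CPM (log2 fold change 0.58, SE 0.39), with WT22M the low library and 0.18 without it. Its partner Col4a3 stood at 0.221, 0.216, 0.111 and 0.112 CPM, from 4, 4, 2 and 2 counts, too few to compare.

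All of the 3 abundant type VI chains were lower in both KO libraries than in both carriers. Of all genes tested, 13.4% had that order and 13.6% the reverse. Col6a1 stood at 20.8 CPM (KO26F) and 24.7 CPM (KO23M) against 29.8 CPM (WT25F) and 30.1 CPM (WT22M). Col6a2, its neighbour on chromosome 10, stood at 23.6, 25.4, 26.3 and 31.7 CPM. Col6a3, the long chain of the trimer, stood at 12.03, 10.7, 15.7 and 14.95 CPM. The carriers lay close together for Col6a1 and Col6a3, and apart for Col6a2. The log2 fold changes were -0.40 (SE 0.14) for Col6a1, -0.25 (SE 0.14) for Col6a2 and -0.43 (SE 0.17) for Col6a3, each with an adjusted p of 0.9997 in edgeR. Col6a1 was at -0.26 without KO26F, and Col6a2 at -0.09 without WT22M and -0.40 without WT25F. Of the other 3 type VI genes, with means under 1 CPM, Col6a5 and Col6a6 had lower KO means and Col6a4 a higher one.

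Members of the smaller classes pointed both ways. Col18a1, the source of endostatin and a component of vessel basement membranes, stood at 97.5 CPM (KO26F) and 108 CPM (KO23M) against 96.4 CPM (WT25F) and 109 CPM (WT22M). The M libraries were the high ones in both arms, and its log2 fold change was -0.00 (SE 0.11). Its arms overlapped, as did those of Col9a3, Col9a2, Col5a1 and Col11a1, among other abundant members. Col26a1, a secreted protein with short collagen stretches, stood at 36.9, 46.5, 51.3 and 48.3 CPM, with KO26F the low library (log2 fold change -0.26, SE 0.12, and -0.08 without KO26F or -0.46 without KO23M). Col7a1, the collagen of the anchoring fibrils under epithelia, stood at 5.96, 7.13, 8.92 and 8.88 CPM (log2 fold change -0.44, SE 0.20), with both KO libraries below both carriers. Keratins listed as markers of surface ectoderm were rare, with Krt8 between 1.57 and 3.97 CPM and Krt18 between 1.46 and 5.35 CPM. WT22M was the lowest library for both, as for the choroid plexus markers, and the listed Krt5 and Krt14 were not found. The part of these keratins in the level of Col7a1 was not tested.

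Among members with a mean of at least 1 CPM the largest positive log2 fold changes belonged to Col8a2, Col4a4, Col9a1 and Col20a1. Col8a2 (chromosome 4, 126286793 to 126314330, plus strand), a short-chain collagen of vessel walls and the corneal membrane, stood at 9.27 CPM (95% counting interval 7.92 to 10.8) and 9.67 CPM (8.30 to 11.2) in KO26F and KO23M, at 7.86 CPM (6.61 to 9.27) in WT25F and at 3.71 CPM (2.87 to 4.72) in WT22M. WT22M was low by itself, and the counting intervals of the other 3 libraries overlapped. The log2 fold change was 0.71 (SE 0.28, and in edgeR an adjusted p = 0.9997). It was 0.28 without WT22M, and 1.33 without WT25F, where it passed the threshold. Its network partner Col8a1 stood at 1.43, 0.918, 2.17 and 1.41 CPM, with the largest negative log2 fold change in that group, -0.61 (SE 0.42), ahead of Col7a1, Col6a3 and Col1a2. It was -0.34 without KO23M and -0.28 without WT25F.

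The type IX chains, a FACIT known from cartilage, and Col20a1, another FACIT, had higher KO means. Of the 9 FACIT genes, 3 had a lower KO mean. Among these, Col22a1 (log2 fold change -0.39, SE 0.16) and Col12a1 (-0.39, SE 0.20) had both KO libraries below both carriers. Col9a3 stood at 43.6 CPM (KO26F) and 40.5 CPM (KO23M) against 42.2 CPM (WT25F) and 31.8 CPM (WT22M), with WT22M the low library. Its log2 fold change was 0.18 (SE 0.13), and 0.01 without WT22M. Col9a2 stood at 12.6, 14.4, 13.9 and 12.6 CPM and Col9a1 at 1.38, 2.27, 1.39 and 1.07 CPM. Col20a1 stood at 1.88, 2.05, 1.89 and 1.35 CPM. Their log2 fold changes were 0.57 (SE 0.42) for Col9a1, 0.14 without KO23M, and 0.27 (SE 0.37) for Col20a1, 0.07 without WT22M. WT22M was thus the lowest library for Col8a2, Col9a3, Col9a1, Col20a1 and Col4a4. It was also the lowest for all 6 choroid plexus markers, among them Ttr, the transport protein that dominates that epithelium (921, 719, 867 and 179 CPM). Of the 34 members with at least 100 counts, 8 were lowest in WT22M, the others being Col5a1, Col4a6 and Col25a1. KO26F and KO23M were lowest for 12 each and WT25F for 2. Of all genes tested, 20.5% had a counting interval below 0 for WT22M over WT25F. None of the choroid plexus markers was at 0 in any library, and their part in the levels of these collagens was not tested.

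Each letter was also read alone, as a ratio of 2 libraries with a counting interval and no replicate check. For KO26F over WT25F, 14 of the 38 tested members had an interval wholly below 0 and 0 had one above it, against 12.8% and 14.5% of all genes tested. For KO23M over WT22M these counts were 14 and 4, against 12.8% and 13.6%. The intervals of 9 tested members lay below 0 in both letters, against 2.29% of all genes tested. Of the tested members 20 were lower in both letters and 4 higher in both, against 24.1% and 27% of all genes tested. Col1a2 stood at -0.51 (interval -0.61 to -0.41) in F and -0.33 (-0.43 to -0.23) in M on the log2 scale, and Col1a1 at -0.19 (-0.29 to -0.08) and -0.51 (-0.61 to -0.41). The type I chains were thus lower in both letters, with the larger gap in F for one and in M for the other. Col4a1 was even, at -0.21 (-0.27 to -0.15) and -0.24 (-0.30 to -0.18). Col8a2 stood at 0.24 (-0.09 to 0.57) in F and 1.38 (0.97 to 1.81) in M.

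**Figure D3:**
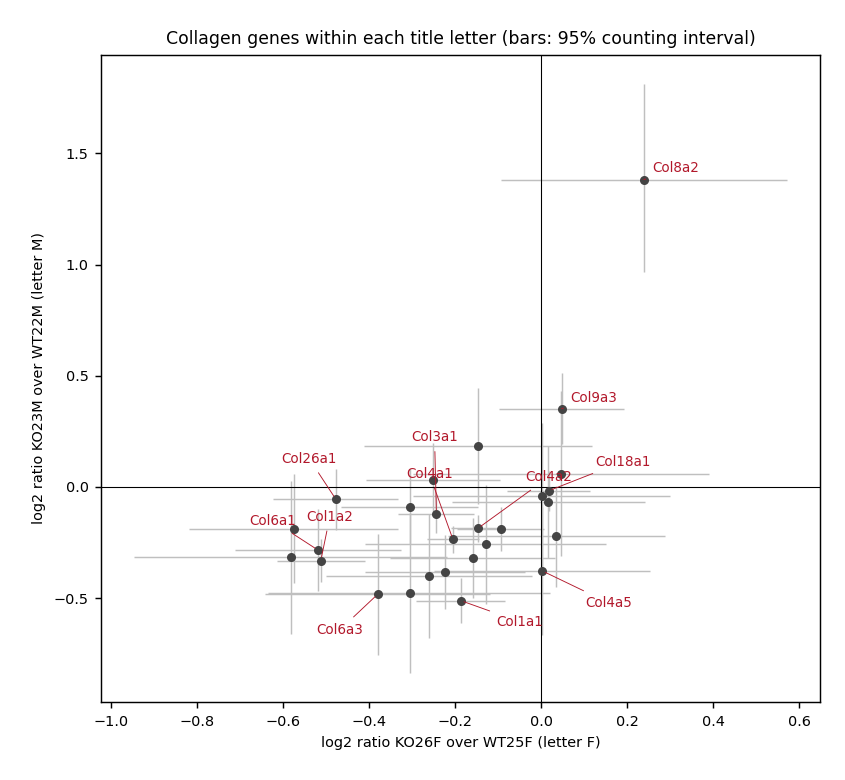
Log2 ratio of KO26F over WT25F (horizontal) and of KO23M over WT22M (vertical) for the 27 collagen genes with a mean of at least 5 CPM, with 95% counting intervals as bars. At the lower left lie 17 genes, with both ratios below 0, and Col8a2 stands alone at the top, at 1.38.

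The second comparison set the KO libraries against WT25F alone, the library whose labels all read wild type, and shares its KO libraries with the first. Of the 38 tested members 28 were lower and 10 higher, with a median log2 fold change of -0.13, against 0.00 over all genes. None passed the threshold in edgeR, where 0.178% of all genes were called lower and 0.166% higher, nor in DESeq2 or voom. An unadjusted p under 0.05 was found for 6 members, all of them lower, and for 3.43% of all genes tested, and the smallest adjusted p was 0.725. The log2 fold change was -0.40 (SE 0.15) for Col1a2, -0.22 (SE 0.15) for Col1a1, -0.20 (SE 0.15) for Col4a1, -0.37 (SE 0.18) for Col6a1 and -0.45 (SE 0.21) for Col6a3. Col1a1 thus lay nearer to WT25F than to the mean of the carriers, and Col8a2 stood at 0.28 (SE 0.26). Without KO26F the median moved to -0.22.

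The third comparison, WT22M against WT25F, shows how far the carriers lie apart and compares 2 libraries, not genotypes. Of the 38 members 20 were lower and 18 higher in WT22M, with a median log2 fold change of -0.05. None passed the threshold in edgeR, where 0.535% of all genes were called lower and 0.178% higher, nor in DESeq2 or voom, and 3 had an unadjusted p under 0.05, 2 of them lower, against 4.88% of all genes tested. These were Col8a2 (-1.05, SE 0.32, adjusted p = 0.109), Col9a3 (-0.38, SE 0.18) and, as the higher one, Col11a2 (0.43, SE 0.20). By counting error alone 9 of the 38 were lower in WT22M and 7 higher, against 20.5% and 13.7% of all genes tested. Col1a2, Col3a1, Col4a1 and Col6a1 differed between the carriers by no more than 0.02 on the log2 scale of the CPM ratio, while Col1a1 was 0.24 higher and Col5a1 0.32 lower in WT22M (log2 ratio -0.32).

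The deposited tables carry the authors' own marks. In the authors' deposited table of KO23M against WT25F, 1 member was marked, Col8a1 (log2 fold change -1.24, adjusted p 0.00983), where 1.92% of all genes were marked lower and 0.976% higher. The authors' deposited table of WT22M against WT25F marked Col8a2 (-1.08, 3.36e-06), where 2.43% were marked lower and 1.19% higher. In the authors' deposited table of KO26F against WT25F 0 members were marked, against 1.02% of all genes lower and 0.937% higher. The marks ask for a log2 fold change of 1 or more in size, and none of the abundant collagens reached it. By an adjusted p under 0.05 alone, the authors' deposited table of KO26F held 12 members lower and 0 higher (6.4% and 7.26% of all genes), and the authors' deposited table of KO23M 15 and 1 (13% and 9.07%). In the authors' deposited table of WT22M these counts were 6 and 7 (13.4% and 8.93%). For Col1a2 that adjusted p was 2.52e-21 in the authors' deposited table of KO26F and 1.14e-09 in that of KO23M. Each table compares 1 library with 1 other, and the 3 share WT25F.

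Chains that assemble into one trimer were compared within each library as a ratio of levels per kilobase. Col4a1 over Col4a2 was 0.945 (KO26F) and 0.863 (KO23M) against 0.984 (WT25F) and 0.893 (WT22M) with the union of exons as length, and 1.04, 0.949, 1.08 and 0.982 with the longest transcript. The ratio overlapped between the arms on both scales. Col1a1 over Col1a2, whose trimer holds more of the first chain than of the second, was 2.02, 1.67, 1.61 and 1.89 with the union of exons and 0.960, 0.797, 0.766 and 0.902 with the longest transcript. Which type I chain was the more abundant thus depended on the length used, and the spread between libraries of one arm was as large as any difference between arms. Col6a3 over Col6a2 was 0.355, 0.293, 0.414 and 0.328 with the union of exons, so the long chain was the scarcer one in every library. Col5a1 over Col5a2 was the steadiest of the ratios, at 1.20, 1.25, 1.16 and 1.15 with the union of exons. Its range was small, but both KO values lay above both carriers. Col4a5 over Col4a6, at 2.15, 1.68, 2.22 and 2.27 on that scale, had both KO values below both carriers, with KO23M the low library. The remaining ratios overlapped between the arms, and no ratio was tested.

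Genes that make, process and bind collagen were read as lists. Of the 19 tested enzymes and chaperones that fold and modify the chains in the endoplasmic reticulum, 12 were lower and 7 higher in KO, with a median log2 fold change of -0.01, and none was called (edgeR). Serpinh1, the collagen-specific chaperone, stood at 228 CPM (KO26F) and 251 CPM (KO23M) against 257 CPM (WT25F) and 235 CPM (WT22M), and P4ha1, a prolyl hydroxylase subunit, at 38.7, 34.4, 31.9 and 30.7 CPM. Serpinh1 overlapped between the arms and P4ha1 was the higher in KO, so neither followed the fibrillar chains. P4ha2, another such subunit, went the other way from P4ha1, at 7.72, 7.19, 8.53 and 9.72 CPM (log2 fold change -0.30, SE 0.19). The 8 genes of collagen export had a median of -0.03 (7 lower, 1 higher), and the 13 tested genes of propeptide cleavage and crosslinking a median of -0.02 (7 lower, 6 higher). In the latter list Pcolce, an enhancer of the cleavage of fibrillar procollagens, stood at 7.72, 9.51, 11.3 and 12 CPM (log2 fold change -0.44, SE 0.19, and in edgeR an adjusted p = 0.9997), with no overlap between the arms.

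The receptors showed small differences. Of 10 tested, 6 were lower and 4 higher, with a median of -0.10 and none called. Adgrg1, the adhesion receptor that binds type III collagen, stood at 530 CPM (KO26F) and 536 CPM (KO23M) against 510 CPM (WT25F) and 519 CPM (WT22M), and Ddr1, a receptor tyrosine kinase for collagens, at 370, 416, 375 and 370 CPM. Itgb1, the shared beta chain of the collagen-binding integrins, stood at 128, 114, 133 and 120 CPM, and Ddr2 at 6.62, 4.11, 6.80 and 6.52 CPM. Itga2, the alpha chain of a collagen-binding integrin, was lower in both KO libraries, at 1.65 and 2.59 CPM against 4.18 and 3.65 (log2 fold change -0.88, SE 0.31, and in edgeR an adjusted p = 0.9997). The 10 genes of collagen breakdown and its inhibitors had a median of -0.02, with 6 lower and 4 higher.

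Proteins that share the matrix with collagens were mostly lower. Among the 12 interstitial partners 11 were lower and 1 higher, with a median log2 fold change of -0.16. None was called in edgeR, and 1, Bgn, passed once the title letter was a block. Bgn, the small proteoglycan biglycan, stood at 72.6 CPM (KO26F) and 71.6 CPM (KO23M) against 95.2 CPM (WT25F) and 82.1 CPM (WT22M) (log2 fold change -0.30, SE 0.11). Among the 12 basement membrane partners 10 were lower and 2 higher, with a median of -0.07, and none was called. Lama5, a laminin chain with the smallest unadjusted p of that list, went the other way. It stood at 24.7 CPM (KO26F) and 22.7 CPM (KO23M) against 17.6 CPM (WT25F) and 21.9 CPM (WT22M) (log2 fold change 0.26, SE 0.15). Lamc1, another laminin chain, stood at 73.0, 65.2, 76.5 and 69.5 CPM and overlapped between the arms.

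Markers were also read for cells that are known to make collagens in this tissue. Of the 14 meningeal fibroblast markers 11 were lower in KO and 3 higher, with a median log2 fold change of -0.22, against 0.00 over all genes tested. None was called in edgeR without a block. With the letter block 1, Aldh1a2, passed as lower, where 0.381% of all genes were called lower and 0.375% higher. Both KO libraries lay below both carriers for 7 of the 14 and above both for 1, against 13.4% and 13.6% of all genes tested. The summed level of the 14 markers was 142 to 147 CPM in the KO libraries and 155.1 to 183 in the carriers. The log2 ratio of these sums was -0.37 in the F libraries and -0.08 in the M libraries, and no marker was at 0. Aldh1a2, the enzyme by which the meninges make retinoic acid, stood at 9.27 CPM (KO26F) and 8.32 CPM (KO23M) against 15.9 CPM (WT25F) and 11.7 CPM (WT22M) (log2 fold change -0.65, SE 0.19, and in edgeR an adjusted p = 0.886, or 0.0196 with the letter block). Foxc1, a transcription factor of the meninges, stood at 13.3, 12.3, 15.2 and 14.6 CPM. Dcn and Lum stand both in this list and among the interstitial partners. The part of these cells in the lower collagen levels was not tested.

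Most vessel and immune markers were also lower. Of the 8 pericyte markers 7 were lower (median -0.21), summing to 262 to 275 CPM in KO and 292 to 307 in the carriers. Vtn, vitronectin, which pericytes secrete, stood at 45.8, 54.5, 64.7 and 63.1 CPM (log2 fold change -0.35, SE 0.12, and in edgeR an adjusted p = 0.9997). Of the 12 endothelial markers 10 were lower (median -0.09), summing to 333 to 345 CPM in KO and 361 to 365 in the carriers, with Cdh5, the endothelial cadherin, at 48.8, 48.9, 58.2 and 54.8 CPM. Of the 8 microglia markers 6 were lower (median -0.26), summing to 80.9 to 83.2 CPM in KO, 88.6 in WT25F and 105 in WT22M. Their median was -0.13 for KO against WT25F alone and 0.29 for WT22M against WT25F, so the size of the difference depended on WT22M. Both KO libraries lay below both carriers for 4 pericyte, 3 endothelial and 5 microglia markers, against 13.4% of all genes tested. They lay above both for 0 in each list, against 13.6%. No marker of these 3 lists was called in edgeR without a block or was at 0. With the letter block 1 passed as lower (Vtn, adjusted p = 0.0102 in edgeR), where 0.381% of all genes were called lower and 0.375% higher. The part of these markers in the collagen levels was not tested. The 12 telencephalic neural markers had a median of 0.09, with 4 lower and 8 higher, and summed to 6388 to 6393 CPM in KO and 6262 to 6459 in the carriers.

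**Figure D4:**
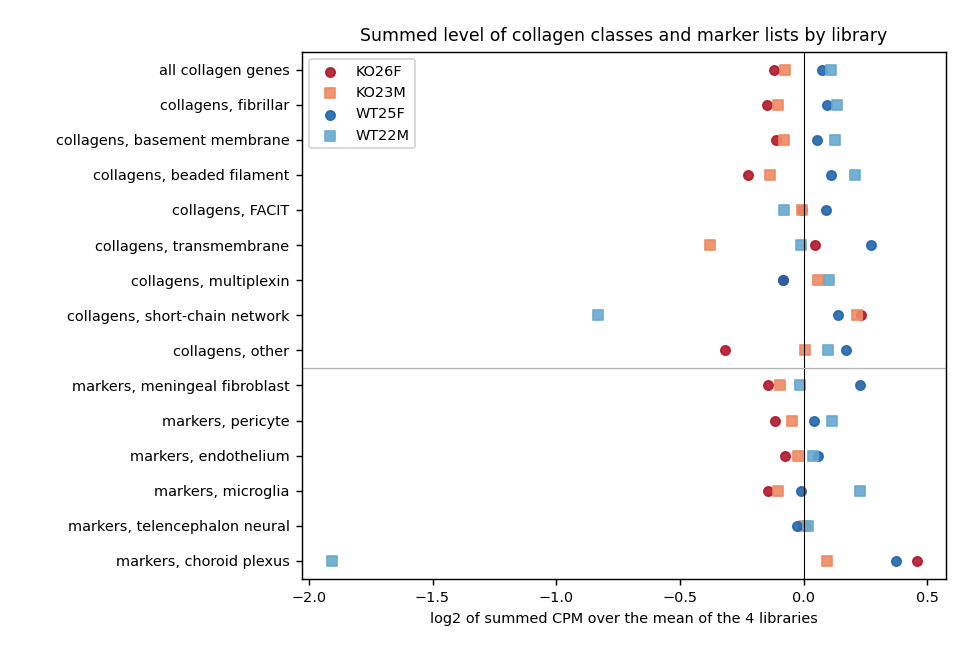
Summed level of the collagen classes (above the line) and of marker lists (below it) in each library, as log2 of the summed CPM over the mean of the 4 libraries; each point is 1 library. Fibrillar, basement membrane and beaded filament collagens and the meningeal fibroblast, pericyte, endothelial and microglia markers have both KO points left of both carriers, and WT22M lies far left for the choroid plexus and the short-chain network.

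Markers of cartilage, bone, skin and muscle stood low. The 9 cartilage and bone markers found summed to 17.4 to 19.1 CPM over the 4 libraries, with Alpl, an enzyme not limited to bone, holding most of it (11.9 to 14.3 CPM), and Matn1 at 0 in both KO libraries. The 5 muscle markers found summed to 2.81 to 3.40 CPM, with Myod1 at 0 in KO23M and WT22M. The 5 skin markers found summed to 4.89 to 11.1 CPM, with Krt8 and Krt18 the highest of them in every library. Col2a1, at 85.2 to 101 CPM, and Col9a3, at 31.8 to 43.6 CPM, thus stood in libraries where Acan, the main proteoglycan of cartilage, was at 0.0540 to 0.446 CPM.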

How the data were processed

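The data are gene counts of RNA from B6D2F2 mouse embryos, in 4 libraries. The submitters' processing notes list TopHat2 2.0.12, Bowtie2 2.2.3, HTSeq 0.6.0 and the build mm9. For the counting, the strand setting and the use of reads with several matches were not given in the sources used here. There are 3 deposited tables, which set KO26F, KO23M and WT22M each against WT25F, and per the file headers each holds a raw count per gene and library. Their normalized columns, also made by the authors, are CPM with 0.5 counts in place of 0. The ratio and the log2 fold change that the authors deposited were taken from these CPM values, and no source used here names the test behind the deposited p-value and its adjusted form.

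The tables were joined on the gene identifier (22084 genes, 19626 of them in all 3 tables), and a gene absent from a table was given a count of 0. All 43 collagen genes were in all 3 tables. CPM was computed from the joined totals, and intervals at the 95% level cover counting error only. The main test was the quasi-likelihood test of edgeR 4.0.16 (TMM, robust fit, filterByExpr on the 2 arms), with Benjamini-Hochberg adjustment over all 16252 genes tested and a threshold of 0.05. The comparisons with WT25F alone used a 3-group fit with 1 residual degree of freedom, in which only the 2 KO libraries give a spread, and a lone library is assumed to vary like them. Exon and transcript lengths and the arrangement of genes were taken from GENCODE vM21 (GRCm38), in which 42 of the 43 members have the same position as in the files. Promoter sequences are from RefSeq (GRCm38.p6).

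The members, the classes and the gene lists were chosen with earlier results of these data known. Of 172 symbols in the lists, 165 were found. Values in all 4 libraries are given for the 12 members with the highest mean CPM, for any member called in a fit, for the 4 members with the largest positive and the 4 with the largest negative log2 fold change (mean log2 CPM 0 or more), and for their partner chains. In the other lists up to 3 genes with the smallest unadjusted p are named, besides Serpinh1, Adgrg1, Ddr1, Ddr2, Itgb1, Foxc1, Aldh1a2 and Cdh5. Lamc1, Acan, Matn1 and Myod1 are named outside that rule, and the last 3 had too few counts to be tested. Alternatives were RLE size factors, DESeq2 1.42.0, voom of limma 3.58.1, 2 other filters (none, and at least 1 CPM in 2 libraries), only genes in all 3 tables, the title letter as a block, the spread of the 2-arm fit, and each library left out in turn. The fits were tested on simulated data. R 4.3.3 and Python 3.11.15 were used.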

Additional observations from a re-analysis of the deposited data

How the results depend on the processing

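For KO against carriers no collagen gene was called under RLE size factors, DESeq2, voom, either other filter or the genes listed in all 3 tables. With the title letter as a replicate block 3 members were called lower and 1 higher. Leaving out each library in turn gave 0 to 1 called lower (Col1a2 at -0.54 without KO23M) and 0 to 1 called higher (Col8a2 at 1.33 without WT25F). Over all fits the median log2 fold change of tested members ranged from -0.19 to -0.13, with 23 to 31 lower. Over 21 members followed through the fits, 3 of 231 alternative values changed sign. With 1 library left out Col18a1 ranged from -0.11 to 0.11 (0.09 without KO26F, 0.11 without WT22M) and Col5a1 from -0.26 to 0.028 (without WT25F). None of these was called. The count of all genes called, 10, went to 6 with voom, 123 with the block, and, with 1 library left out, to 48 (KO26F), 65 (KO23M), 100 (WT25F) and 59 (WT22M). The cause was not tested.

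For KO against WT25F the median ranged from -0.22 (without KO26F) to -0.09 (no filter), without KO23M it was -0.16, and the count of all genes called, 56, was 25 with DESeq2, 0 without the filter and 6 with the spread of the 2-arm fit. For WT22M against WT25F the median was 0.033 without the filter, and 116 genes called became 33 with DESeq2 and 0 without the filter or with the spread of the 2-arm fit. Leaving out a KO library leaves these fits no residual degree of freedom, so only directions were read. With the longest transcript in place of the union of exons the mean chain ratios were 0.856 for Col1a1 over Col1a2, 1.01 for Col4a1 over Col4a2, 1.18 for Col6a1 over Col6a2, 0.243 for Col6a3 over Col6a2, 0.829 for Col5a1 over Col5a2, 0.357 for Col9a2 over Col9a3 and 1.78 for Col4a5 over Col4a6, since lengths differ by gene. As to pairing, the F minus M difference in KO correlated with that in the carriers at r = 0.25 over 16252 tested genes (genes are not independent replicates). With only 2 letters and no label of a shared litter or batch this does not make them pairs. Depth limits the 9 members with a mean under 1 CPM, of which 5 were not tested.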
